A study of Mus musculus with 6 samples.

Results

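The genes described here are 10 signalling genes of fibroblasts: the interleukin-6 (IL-6) family ligand genes Il6, Il11 and Lif, their shared receptor gene Il6st, the feedback inhibitor gene Socs3, the macrophage growth factor gene Csf1, the alarmin genes Il33 and Tslp, the Il33 receptor gene Il1rl1, and the prostaglandin synthase gene Ptgs2. They were chosen by name, and each was read from the probe set annotated with its symbol alone that had the highest mean over all arrays. 9 of the 10 were measured in this way, among 22180 genes in all, and Il1rl1 was not analysed here. The treated cells were lung fibroblasts from adult UBCCreERT2:R26RSmoM2 mice of mixed strain given 4-hydroxytamoxifen (4OHT), an active form of tamoxifen, at 1 µg/ml for 48 h (3 wells), and they were set against wells of the same cells given vehicle (3 wells). All 6 wells carried both alleles: CreERT2, a tamoxifen-dependent Cre recombinase under the ubiquitin C promoter, which is active in most cell types, and SmoM2, a constitutively active form of the hedgehog signal transducer Smoothened that Cre switches on from the Rosa26 locus. 4OHT, nuclear Cre and the activated allele therefore cannot be told apart. The cells were primary cultures kept for at most 3 passages. The label of every array carries the same number, 2640, and no label states separate animals for the wells, so the p-values measure only how much wells differ, and that spread may be technical.

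IL-6, IL-11 and leukaemia inhibitory factor bind receptors that all signal through the shared subunit encoded by Il6st, which activates JAK kinases and the transcription factor STAT3, and STAT3 induces Socs3, whose product shuts the receptor down. Alarmins are released by stromal and epithelial cells upon injury: interleukin-33 acts through the receptor encoded by Il1rl1 on innate lymphoid and mast cells, and thymic stromal lymphopoietin, encoded by Tslp, acts on dendritic and lymphoid cells. Ptgs2 encodes the inducible cyclooxygenase, which makes the precursor of the prostaglandins, and Csf1 encodes the growth factor on which macrophages depend. Lung fibroblasts are a known source of several of these signals.

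Single-colour Affymetrix arrays gave log2 expression after RMA, which equalizes the distributions of probe intensities before they are summarized per probe set. Medians of the deposited values over all probe sets ran from 6.725 to 6.776 in 4OHT wells and from 6.695 to 6.717 in vehicle wells. Over the genes tested the medians ran from 7.437 to 7.452 in 4OHT wells and from 7.452 to 7.473 in vehicle wells. Pearson's r across genes, which are not independent replicates, lay between 0.9974 and 0.9981 within a group and between 0.9947 and 0.9958 between groups, and the number of arrays limits the precision. The cells were read against marker lists, which do not settle which cells the culture held. Of 10 fibroblast markers, Fn1 and Vim measured 14.28 and 14.11 log2 units in 4OHT wells and 14.28 and 14.14 in vehicle wells, and 1 of the 10 (Col3a1) passed the test described below, as lower. The mean log2 level of the 10 ranged from 12.60 to 12.62 in 4OHT wells and from 12.68 to 12.70 in vehicle wells. Over all arrays the 2 brightest smooth muscle and pericyte markers, Acta2 and Cnn1, measured 14.24 and 13.62. The 2 brightest mesothelial markers, Upk1b and Upk3b, measured 13.52 and 12.89. Of 9 proliferation markers, all 9 were lower in 4OHT wells, with a median log2 fold change of -1.33. This was 100% of the list, against 10% of the fibroblast list and 12.0% of all genes. The mean log2 level of the 9 ranged from 8.14 to 8.33 in 4OHT wells and from 9.49 to 9.58 in vehicle wells. The part of this difference in the results below was not tested. On single-colour arrays, a level of one probe set says nothing about another, so levels are compared between groups and never between genes.

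Il33 and Lif were lower and Il6 was higher in 4OHT wells, and the other 6 genes did not pass the test. Il33 fell by 0.53, Lif fell by 0.21 and Il6 rose by 0.25 on the log2 scale. The changes were judged with limma, a moderated linear model fitted over all 22180 genes, at a Benjamini-Hochberg adjusted p under 0.05. 12.0% of all genes passed that threshold, 5.38% as higher and 6.62% as lower, against 3 of the 9 genes here, 1 higher and 2 lower. Centring the arrays on their medians over all probe sets changed the division of calls over all genes to 775 higher and 1748 lower, against 1193 and 1469 as deposited. In 6 of the 9 the values of the groups did not overlap, against 32.7% of all genes. The median log2 fold change of the 9 was -0.03, against -0.01 for all genes. With any single array left out, between 0 and 1 of the 9 were called higher and between 1 and 2 lower. Lif was called in none of these fits, and the 2 lower without 4OHT replicate 3 were Il33 and Il11. With 9 genes, these shares describe the list and show nothing particular to it.

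**Figure D1:**
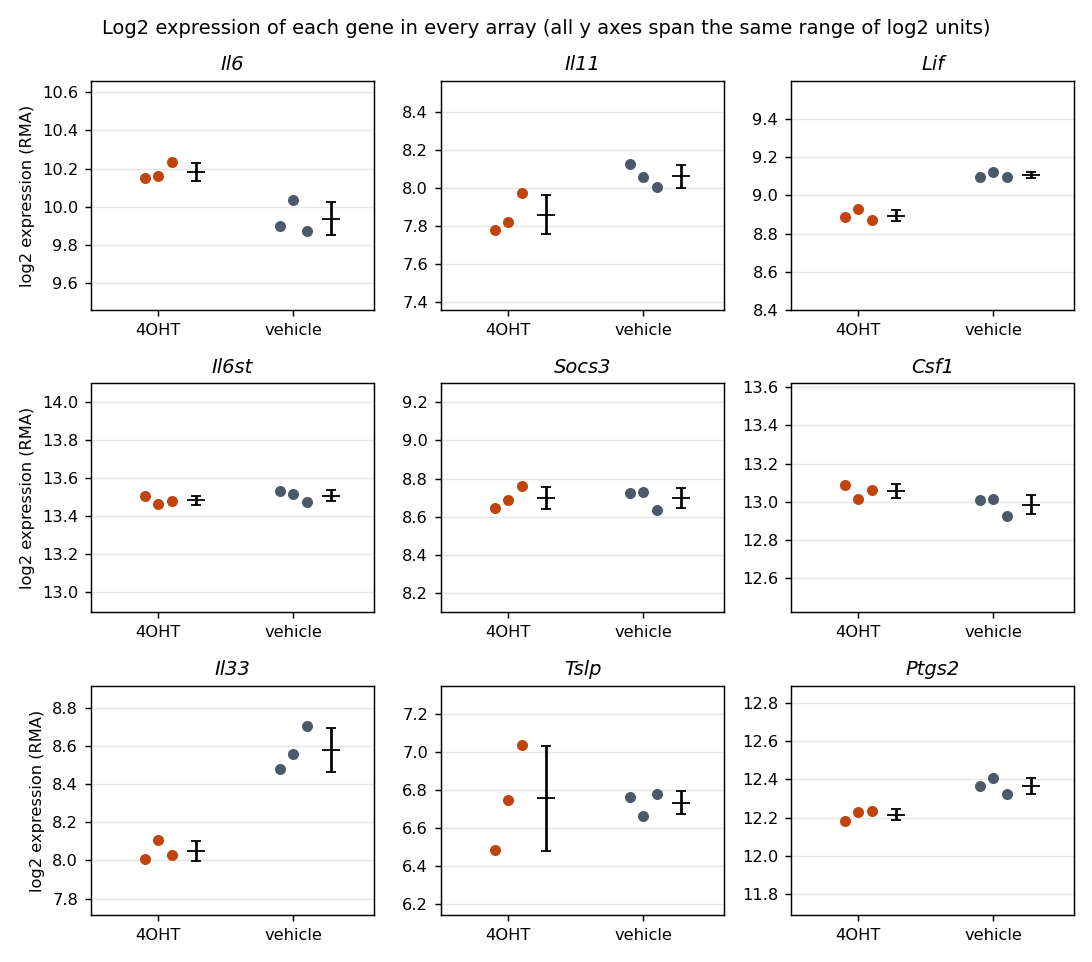
Log2 expression (y axis, RMA log2 units) of 9 genes in each of 3 4OHT arrays (left, orange) and 3 vehicle arrays (right, grey), with the mean and SD of each group as a black bar. Every panel spans the same number of log2 units, so distances can be compared between panels although levels cannot. The Il33 points in 4OHT wells, at 8.01 to 8.11, lie below all vehicle points, at 8.48 to 8.71.

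Il6 encodes interleukin-6, a cytokine that fibroblasts secrete in inflammation. Its log2 level was 10.15, 10.16 and 10.23 in 4OHT wells, against 9.90, 10.03 and 9.87 in vehicle wells. All 3 4OHT wells were above all 3 vehicle wells, and vehicle replicate 2 stood nearest to them. The means were 10.18 ± 0.05 in 4OHT wells and 9.94 ± 0.09 in vehicle wells (SD, n = 3 each), a 1.19-fold rise (log2 fold change 0.25, 95% interval 0.11 to 0.38, limma adjusted p = 0.0405). The call held without vehicle replicate 2 (adjusted p = 0.0398), was lost without any other single array (adjusted p from 0.0915 to 0.118), and was also lost after centring each array on its median over all probe sets (0.0908) or weighting arrays by quality (0.0507). In a culture of mixed cells, more RNA per cell and more cells of a type cannot be told apart.

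The promoter windows of the 3 genes that passed the test are shown to set the gene that rose beside those that fell. Each window runs from 250 bases before to 50 bases from the annotated start, is taken from RefSeq on build GRCm38.p6 and is written 5′ to 3′ on the gene's strand, with matches to 8 motifs in capitals. Windows were matched by symbol, leaving out those on an excluded chromosome, and cover 9 of the 10 genes, all but Tslp. Tslp is therefore not shown to lack a window. The motifs, searched on both strands, were a STAT palindrome TTCNNNGAA, an NF-kB site made of GGG and TTTCC with NN between them, an AP-1 site TGANTCA, the cyclic AMP response element (CRE) TGACGTCA and its core TGACGT, a C/EBP palindrome TTGCGCAA, the E-box CACGTG and the TATA box TATAAA. The core lies within the full element, and no other motif contains another.
Il6, chr5:30012864-30013163, plus strand: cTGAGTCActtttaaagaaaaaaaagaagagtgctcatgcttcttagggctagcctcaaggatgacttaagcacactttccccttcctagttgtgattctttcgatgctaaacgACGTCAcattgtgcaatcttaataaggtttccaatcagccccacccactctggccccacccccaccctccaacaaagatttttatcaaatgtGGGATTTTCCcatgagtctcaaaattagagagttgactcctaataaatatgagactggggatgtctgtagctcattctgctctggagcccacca
Lif, chr11:4257318-4257617, plus strand: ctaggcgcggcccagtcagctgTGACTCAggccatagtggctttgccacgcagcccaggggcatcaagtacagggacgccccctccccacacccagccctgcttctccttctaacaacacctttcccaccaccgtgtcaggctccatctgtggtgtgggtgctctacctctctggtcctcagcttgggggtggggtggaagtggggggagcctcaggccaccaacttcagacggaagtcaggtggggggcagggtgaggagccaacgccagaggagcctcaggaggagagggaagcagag
Il33 start 1, chr19:29924863-29925162, plus strand: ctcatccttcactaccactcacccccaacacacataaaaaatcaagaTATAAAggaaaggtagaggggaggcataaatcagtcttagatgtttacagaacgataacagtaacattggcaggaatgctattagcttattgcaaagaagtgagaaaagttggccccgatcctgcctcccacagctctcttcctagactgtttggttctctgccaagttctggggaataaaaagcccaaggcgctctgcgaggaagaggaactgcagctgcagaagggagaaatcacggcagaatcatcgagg
Il33 start 2, chr19:29945540-29945839, plus strand: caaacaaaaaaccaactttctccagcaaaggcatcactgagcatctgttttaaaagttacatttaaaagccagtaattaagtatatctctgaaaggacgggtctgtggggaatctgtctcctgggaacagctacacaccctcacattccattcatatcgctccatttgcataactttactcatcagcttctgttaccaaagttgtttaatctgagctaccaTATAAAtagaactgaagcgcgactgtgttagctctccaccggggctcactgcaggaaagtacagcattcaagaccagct

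In the Il6 window the capitals mark an AP-1 site from -249 to -243, a CRE core from -136 to -131 on the opposite strand and an NF-kB site from -44 to -35, counting the first base of the transcript as 0. The Lif window held 1 match, an AP-1 site from -228 to -222. The Il33 windows each held a TATA box, from -203 to -198 at start 1 and from -29 to -24 at start 2. Genes not called held some of the same motifs. The Csf1 window had an NF-kB site from -154 to -145, and Il11 start 2 an AP-1 site from -98 to -92. Among 32851 promoter windows of the same length, 1.63% held the NF-kB letters, 7.81% the AP-1 letters, 7.51% the CRE core and 13.6% the TATA box. A match is a run of letters and not a measured site.

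**Figure D2:**
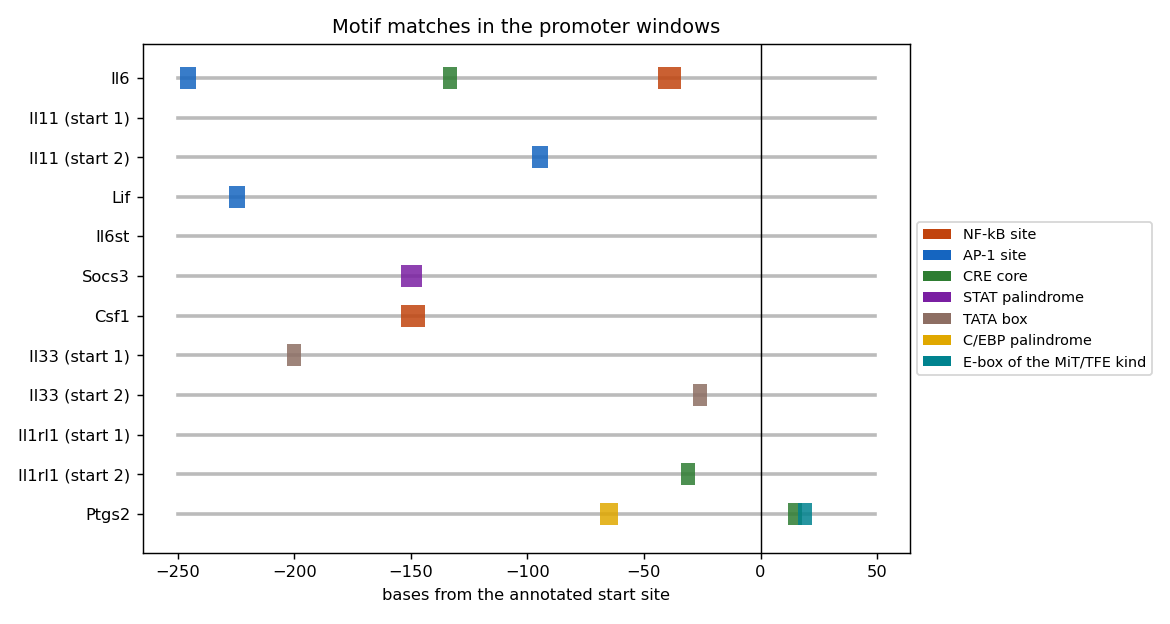
Matches to the searched motifs (coloured blocks, 1 colour per motif) in the 12 promoter windows used, which cover all 10 genes but Tslp, with distance from the annotated start site in bases on the x axis and 1 window per line. Il6 and Ptgs2 each hold 3 matches, at different positions and of different kinds apart from the CRE core, and the windows of Il6st, of Il11 start 1 and of Il1rl1 start 1 hold none.

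Lif encodes leukaemia inhibitory factor, an IL-6 family cytokine. It measured 8.89, 8.93 and 8.87 log2 units in 4OHT wells, against 9.10, 9.12 and 9.10 in vehicle wells. The groups did not overlap, and the wells of each group lay close together. The means were 8.89 ± 0.03 in 4OHT wells and 9.11 ± 0.02 in vehicle wells (SD, n = 3 each), with a log2 fold change of -0.21 (95% interval -0.31 to -0.11, limma adjusted p = 0.0220). Without any single array the fold change stayed between -0.23 and -0.20 and the adjusted p lay between 0.0531 and 0.0845, so the call was lost each time.

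Il11 encodes interleukin-11, a fibroblast cytokine of the same family studied for its part in fibrosis. The log2 level was 7.78, 7.82 and 7.98 in 4OHT wells, against 8.13, 8.06 and 8.003 in vehicle wells. The groups did not overlap, but 4OHT replicate 3 lay close below vehicle replicate 3. The log2 fold change was -0.20 (95% interval -0.36 to -0.04) and did not pass over all genes (limma adjusted p = 0.105). It passed without 4OHT replicate 3 (log2 fold change -0.26, adjusted p = 0.0464) and in the fit of only genes above the median level (adjusted p = 0.0312). The latter fit called 1750 higher and 2134 lower of 11090 genes.

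The 3 called genes were also set against each other within arrays, where the scaling between arrays cancels. The log2 difference of the Il6 probe set and the Lif probe set was 1.26, 1.23 and 1.36 in 4OHT wells, against 0.81, 0.91 and 0.78 in vehicle wells. The difference was larger in each 4OHT well than in any vehicle well, by 0.46 on average. The corresponding difference of Il6 and Il33 was 2.14, 2.05 and 2.20 in 4OHT wells, against 1.42, 1.48 and 1.17 in vehicle wells. That of Lif and Il33, which both fell, was 0.88, 0.82 and 0.84 in 4OHT wells, against 0.62, 0.57 and 0.39 in vehicle wells. All 3 differences were larger in each 4OHT well than in any vehicle well. Only the shift between groups carries meaning here, since the absolute differences depend on the probes, and it shows unequal change of the 2 genes and no direction of either. These differences restate the values behind the calls, and no test was run on them.

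Il6st encodes the signalling subunit that the receptors for all 3 cytokines share. Its log2 level was 13.50, 13.46 and 13.48 in 4OHT wells, against 13.53, 13.52 and 13.47 in vehicle wells. The groups overlapped, and the log2 fold change of -0.03 had a 95% interval of -0.13 to 0.07 (limma adjusted p = 0.758).

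Socs3, the STAT3-induced feedback inhibitor, had a log2 level of 8.65, 8.69 and 8.76 in 4OHT wells, against 8.72, 8.73 and 8.64 in vehicle wells. The groups overlapped fully, with a log2 fold change of 0.0019 (95% interval -0.12 to 0.13, limma adjusted p = 0.986). A second Socs3 probe set read 6.23, 6.15 and 6.46 in 4OHT wells, against 6.25, 6.18 and 6.28 in vehicle wells, and did not pass either (log2 fold change 0.04, adjusted p = 0.809 over all probe sets). The Socs3 promoter window was the only one of the 12 with a match to the STAT palindrome, which 8.3% of all windows held.

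Other genes of the IL-6 family moved in both directions. Of 11 measured ligand and receptor genes outside the 9, 1 was higher and 2 were lower, 27.3% of the list against 12.0% of all genes, with a median log2 fold change of 0.01. Il6ra, which encodes the specific receptor chain for interleukin-6, had log2 levels of 9.38, 9.43 and 9.43 in 4OHT wells, against 9.10, 8.90 and 9.16 in vehicle wells (log2 fold change 0.36, limma adjusted p = 0.0239). The 3 4OHT wells lay together above the vehicle wells, of which replicate 2 was lowest. Ctf1, which encodes the ligand cardiotrophin 1, had log2 levels of 9.30, 9.45 and 9.39 in 4OHT wells, against 9.82, 9.73 and 9.79 in vehicle wells (log2 fold change -0.40, adjusted p = 0.00595). Cntfr, the receptor gene for ciliary neurotrophic factor, fell by 0.32 on the log2 scale (adjusted p = 0.0165). The Il6ra call was lost without vehicle replicate 1 or any 4OHT replicate (adjusted p from 0.0562 to 0.0862), the Cntfr call without 4OHT replicate 1 or 2 or either of vehicle replicates 2 and 3 (0.0528 to 0.0687), and the Ctf1 call under none of the 6 omissions.

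Of 13 measured JAK-STAT3 signalling and feedback genes, 1 was higher and 1 lower, 15.4% of the list, near the 12.0% of all genes, with a median log2 fold change of -0.01. Tyk2, a JAK family kinase gene, rose by 0.25 on the log2 scale (limma adjusted p = 0.0212), and Socs2, another member of the feedback inhibitor family, fell by 0.27 (adjusted p = 0.0370). The Tyk2 call was lost on leaving out 4OHT replicate 1 or 2 or either of vehicle replicates 2 and 3 (adjusted p from 0.0505 to 0.0781) and the Socs2 call without any single array (0.0610 to 0.120).

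Genes known as STAT3 targets split. Of 20 measured, 4 were higher and 3 lower, 35% of the list against 12.0% of all genes, with a median log2 fold change of 0.01. After centring the arrays on their medians over all probe sets, 1 was higher and 3 were lower. Bcl3, an NF-kB cofactor gene, had log2 levels of 9.65, 9.70 and 9.64 in 4OHT wells, against 9.02, 9.17 and 9.19 in vehicle wells (log2 fold change 0.54, limma adjusted p = 0.00227). Saa3, an acute-phase gene, had log2 levels of 7.88, 7.45 and 7.63 in 4OHT wells, against 8.37, 8.47 and 8.50 in vehicle wells (log2 fold change -0.79, adjusted p = 0.00584). The wells of the groups were apart for both genes, in opposite directions. Steap4, a metalloreductase gene induced in inflammation, fell by 0.78 on the log2 scale (adjusted p = 0.00637), and Il4ra, the interleukin-4 receptor gene, by 0.25 (adjusted p = 0.0112). The other 3 that rose, named after their values were seen, were the kinase genes Pim1 and Pim3 and the transcription factor gene Cebpb, by 0.23, 0.18 and 0.20 on the log2 scale. Leaving out any single array left 1 or 2 members higher, and leaving out 4OHT replicate 3 brought the count lower to 4. Without any single array the calls for Bcl3, Saa3 and Steap4 held, while that for Il4ra was lost without vehicle replicate 2 (adjusted p = 0.0503) or 4OHT replicate 2 (0.0515).

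**Figure D3:**
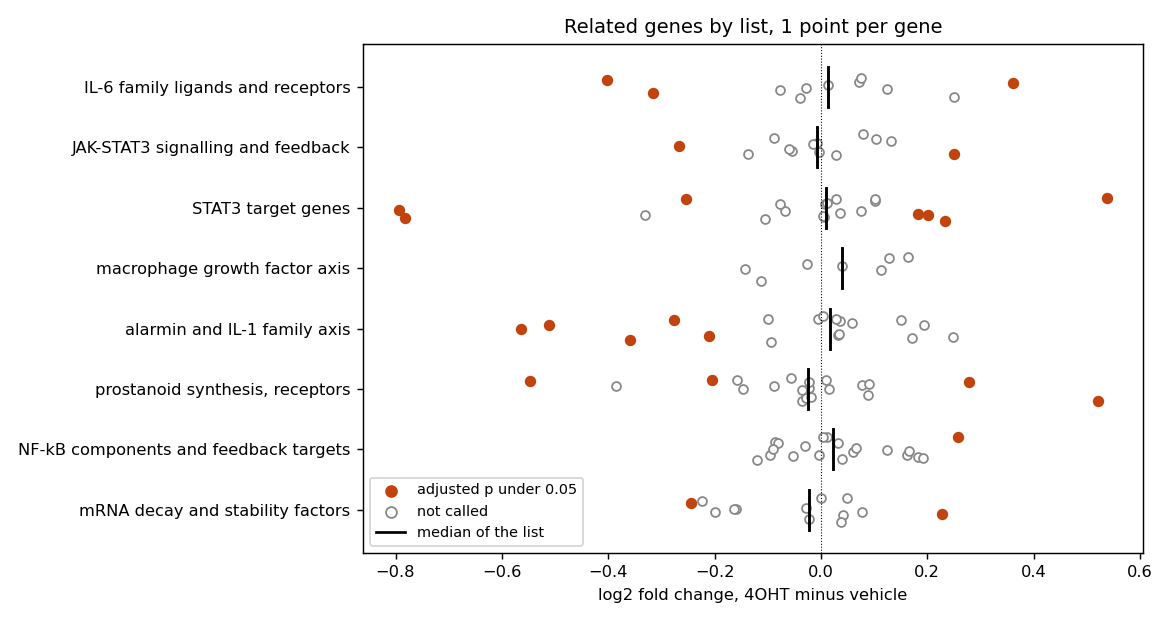
Log2 fold change (x axis, 4OHT minus vehicle) of each measured gene in 8 lists of related genes, 1 point per gene, filled where the limma adjusted p was under 0.05, with the median of each list as a black line. The medians lie between -0.03 and 0.04, while called genes stand on both sides of 0 in 5 of the lists, on the lower side alone in the alarmin and IL-1 family list, and on the higher side alone in the NF-kB list.

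Csf1 encodes the growth factor that macrophages need to survive. Its log2 level was 13.09, 13.02 and 13.06 in 4OHT wells, against 13.01, 13.01 and 12.93 in vehicle wells. The groups all but touched, with 13.0154 in the lowest 4OHT well and 13.0139 in the highest vehicle well, and the log2 fold change of 0.07 (95% interval -0.04 to 0.19) did not pass (limma adjusted p = 0.396). None of 7 measured genes of the macrophage growth factor axis passed by limma, against 12.0% of all genes. At an unadjusted p under 0.05, 2 of the 7 were higher and 1 lower, and the share of all genes at that threshold was not counted. Csf2, which encodes another macrophage and granulocyte growth factor, had the smallest p of the 7, with log2 levels of 6.24, 6.27 and 6.32 in 4OHT wells and 6.14, 6.17 and 6.13 in vehicle wells (adjusted p = 0.119). Of 10 macrophage and leukocyte markers, Cd68 was higher (log2 fold change 0.48) and Lyz2 lower (-0.24), 20% of the list against 12.0% of all genes. The mean log2 level of the 10 ranged from 7.24 to 7.41 in 4OHT wells and from 7.29 to 7.35 in vehicle wells.

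Il33 encodes interleukin-33, a nuclear alarmin of the IL-1 family. Its log2 level was 8.01, 8.11 and 8.03 in 4OHT wells, against 8.48, 8.56 and 8.71 in vehicle wells. The highest 4OHT well lay clearly below the lowest vehicle well. The means were 8.05 ± 0.05 in 4OHT wells and 8.58 ± 0.12 in vehicle wells (SD, n = 3 each), so the level in 4OHT wells was 0.692 times that in vehicle wells (log2 fold change -0.53, 95% interval -0.70 to -0.37, limma adjusted p = 0.00472). The absolute change was larger than that of 97.2% of all genes. The call held without any single array (adjusted p from 0.00961 to 0.0247) and in all other alternative fits tried. It was lost where a change of at least 1.5-fold was also required.

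In the lung, Il33 is also known from epithelial and endothelial cells, so their markers are given beside it. Of 7 measured epithelial markers, Krt8 was called lower (log2 fold change -0.33) and none higher. Krt18 rose by 0.17 on the log2 scale without overlap of the groups but did not pass (limma adjusted p = 0.162). The mean log2 level of the list ranged from 6.85 to 6.90 in 4OHT wells and from 6.89 to 6.90 in vehicle wells. Of 8 endothelial markers 3 were lower and 2 higher, and the list mean ranged from 6.59 to 6.65 in 4OHT wells and from 6.74 to 6.86 in vehicle wells. On the log2 scale the junction gene Cdh5 fell by 0.95, Emcn by 0.92 and Pecam1 by 0.36, while the receptor genes Tek and Kdr rose by 0.42 and 0.21. Emcn, Pecam1 and Tek had means of 6.30, 6.78 and 6.45 over all arrays, below the median gene mean of 7.46. Whether their probe sets stood above background was not measured. Of 6 mesothelial markers, Upk3b and Lrrn4 were lower and Msln was higher, with list means from 10.97 to 11.06 in 4OHT wells and from 11.18 to 11.22 in vehicle wells. Of 8 smooth muscle and pericyte markers 6 were lower, with list means from 11.53 to 11.58 in 4OHT wells and from 11.98 to 12.01 in vehicle wells. Called genes made up 14.3% of the epithelial, 62.5% of the endothelial, 50% of the mesothelial and 75% of the smooth muscle list. Of all genes, 12.0% were called. The part of these markers in the fall of Il33 was not tested.

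Tslp encodes thymic stromal lymphopoietin. Log2 levels were 6.49, 6.75 and 7.03 in 4OHT wells, against 6.76, 6.66 and 6.78 in vehicle wells. The 4OHT wells spanned more than the vehicle wells on both sides, and the log2 fold change of 0.02 had a wide 95% interval of -0.29 to 0.33 (limma adjusted p = 0.940). Tslp was the only one of the 9 genes that the filter on genes above the median level removed. Whether its probe set stood above background was not measured here.

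The alarmin and IL-1 family axis outside the 9 genes had 5 of 18 measured genes lower and none higher (27.8% called, against 12.0% of all genes), with a median log2 fold change of 0.02. At an unadjusted p under 0.05, 2 of the 18 were higher and 5 lower, and the share of all genes at that threshold was not counted. Il1r1, the signalling receptor gene for interleukin-1, had log2 levels of 11.29, 11.22 and 11.24 in 4OHT wells, against 11.81, 11.83 and 11.80 in vehicle wells (log2 fold change -0.56, limma adjusted p = 0.000674). The wells of each group lay close together and far from the other group. Il1rn, which encodes the secreted antagonist of the same receptor, had log2 levels of 7.14, 7.04 and 6.83 in 4OHT wells, against 7.62, 7.54 and 7.37 in vehicle wells (log2 fold change -0.51, adjusted p = 0.0210). Il18, another cytokine gene of the family, fell by 0.36 (adjusted p = 0.0205) and Irak2, a kinase gene downstream of the receptors, by 0.21 on the log2 scale (adjusted p = 0.0228). The fifth, named after its values were seen, was the adaptor gene Myd88, which fell by 0.28. The Il1r1 call held without any single array. The count of members lower was 1 without vehicle replicate 2 or 4OHT replicate 2, 2 without vehicle replicate 1 or 4OHT replicate 1, and 3 without vehicle replicate 3, which also brought 1 member to a call as higher. The calls for Il1rn, Il18 and Irak2 were each lost without vehicle replicate 2 or 4OHT replicate 2, among others (adjusted p from 0.0614 to 0.0874). Of 10 mast cell and lymphoid markers, the group of cells that alarmins act on, Cpa3 was called higher (log2 fold change 0.46) and none lower. That was 10% of the list, against 12.0% of all genes. Groups did not overlap in 2 as higher and 2 as lower, against 15.0% and 17.8% of all genes. The mast cell genes Ms4a2 and Mcpt4 fell by 0.19 and 0.24 on the log2 scale without passing. Cpa3, Ms4a2 and Mcpt4 had means of 5.70, 6.34 and 3.56 over all arrays, and whether their probe sets stood above background was not measured. The list mean ranged from 5.68 to 5.73 in 4OHT wells and from 5.65 to 5.70 in vehicle wells.

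Ptgs2, the inducible cyclooxygenase gene, had log2 levels of 12.18, 12.23 and 12.23 in 4OHT wells, against 12.37, 12.41 and 12.32 in vehicle wells. All 3 4OHT wells were below all 3 vehicle wells, with means of 12.21 ± 0.03 in 4OHT wells and 12.37 ± 0.04 in vehicle wells (SD, n = 3 each). The log2 fold change of -0.15 (95% interval -0.26 to -0.04) did not pass over all genes (limma adjusted p = 0.0832). It passed in the fit of only genes above the median level (adjusted p = 0.0180) and when the spread was estimated with a trend and robustly (adjusted p = 0.00470). Over all genes tested, those fits called 2134 of 11090 and 2295 of 22180 lower. The Ptgs2 window held a C/EBP palindrome from -69 to -62, found in 0.183% of all windows, and an overlapping CRE core (12 to 17) and E-box (16 to 21) past the start.

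**Figure D4:**
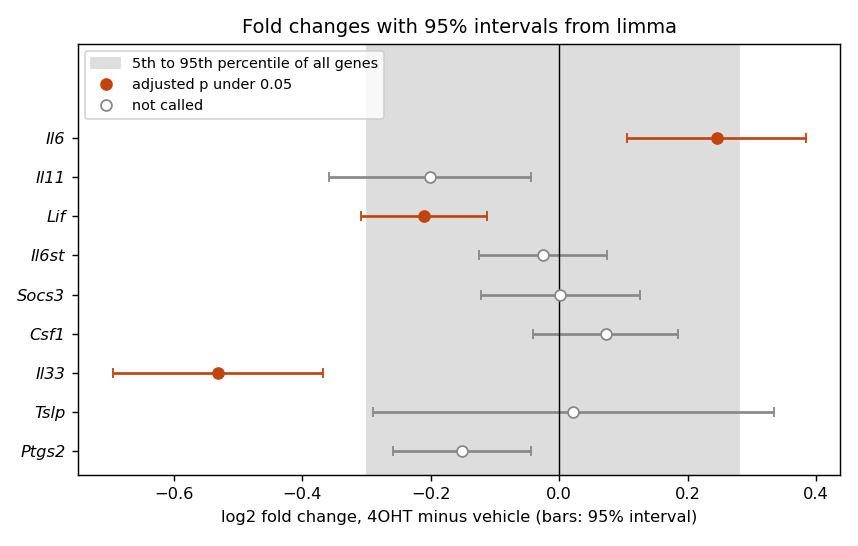
Log2 fold change (x axis, 4OHT minus vehicle) of 9 genes with 95% intervals from limma, filled orange where the adjusted p was under 0.05 and open grey where it was not, over a grey band from the 5th to the 95th percentile of all genes (-0.30 to 0.28). Il33, at -0.53, is the only point outside the band, and the intervals of Il11 and Ptgs2 exclude 0 although their adjusted p did not pass.

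Prostanoid genes other than Ptgs2 changed on both sides. Of 20 measured genes for synthesis, transport and receptors, 2 were higher and 2 lower, 20% of the list against 12.0% of all genes, with a median log2 fold change of -0.03. After centring on all probe sets 1 was higher and 2 were lower, and among only genes above the median level 2 were higher and 4 lower. Over all genes tested, the first fit called 775 higher and 1748 lower of 22180, and the second 1750 and 2134 of 11090. Pla2g2e, a secreted phospholipase gene, had log2 levels of 8.02, 8.15 and 8.07 in 4OHT wells, against 7.53, 7.59 and 7.56 in vehicle wells (log2 fold change 0.52, limma adjusted p = 0.00154). Tbxa2r, the thromboxane receptor gene, had log2 levels of 9.87, 9.92 and 10.04 in 4OHT wells, against 10.51, 10.49 and 10.48 in vehicle wells (log2 fold change -0.55, adjusted p = 0.00183). For both genes the groups were far apart, and both calls held without any single array. Abcc4, whose product exports prostaglandins, rose by 0.28 (adjusted p = 0.0285), and Ptgr1, which encodes a prostaglandin reductase, fell by 0.20 on the log2 scale (adjusted p = 0.0198). The Abcc4 call was lost without any array but vehicle replicate 3 (adjusted p from 0.0745 to 0.0945) and after centring on all probe sets (0.0673), and the Ptgr1 call without any array but 4OHT replicate 3 (0.0532 to 0.0766).

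Regulators that act on several of these genes were read from the last 2 lists. Of 20 measured NF-kB components and feedback targets, Nfkbiz was the only gene called in the reported fit, at 5% of the list against 12.0% of all genes, while 6 were higher and 0 lower at an unadjusted p under 0.05. The groups did not overlap in 5 as higher and 1 as lower, against 15.0% and 17.8% of all genes. The share of all genes at an unadjusted p under 0.05 was not counted here. The count called higher was 4 among only genes above the median level, 3 with the spread estimated with a trend and robustly, 3 at an adjusted p under 0.10 and 2 with array quality weights. In the same order, the counts higher over all genes tested were 1750 of 11090, 1828 of 22180, 1785 of 22180 and 1458 of 22180. Nfkbiz, which encodes a nuclear cofactor that Il6 transcription uses, had log2 levels of 8.89, 8.86 and 8.88 in 4OHT wells, against 8.63, 8.60 and 8.64 in vehicle wells (log2 fold change 0.26, limma adjusted p = 0.00967), and its call held without any single array. Of 13 measured factors for the decay and stability of cytokine mRNAs, 1 was higher and 1 lower, 15.4% of the list against 12.0% of all genes, while 1 was higher and 5 were lower at an unadjusted p under 0.05. The groups did not overlap in 1 as higher and 4 as lower, beside the same 15.0% and 17.8% of all genes. The counts were 1 higher and 4 lower both among only genes above the median level and with the trended and robust spread, 1 and 3 at an adjusted p under 0.10, and 0 and 3 after centring on all probe sets. In the same order, the counts lower over all genes tested were 2134 of 11090, 2295 of 22180, 2165 of 22180 and 1748 of 22180. Zfp36, which encodes a protein that promotes the decay of cytokine mRNAs, had log2 levels of 10.64, 10.75 and 10.78 in 4OHT wells, against 10.95, 10.93 and 11.02 in vehicle wells (log2 fold change -0.24, adjusted p = 0.0335). Its relative Zfp36l2 rose by 0.23 on the log2 scale (adjusted p = 0.0377). The Zfp36 call was lost without any array but 4OHT replicate 3 (adjusted p from 0.0802 to 0.0937), and the Zfp36l2 call without any array but vehicle replicate 1 (0.0740 to 0.128) and after centring on all probe sets (0.0754).

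Over the 121 measured genes of the 8 lists together, 10 were higher and 14 lower, 19.8% against 12.0% of all genes, with a median log2 fold change of 0.0036. In 26 of them every 4OHT well was above every vehicle well and in 26 below, against 15.0% and 17.8% of all genes. Osmr stands in 2 of the lists. With any single array left out, 3 to 7 of the 121 were higher and 5 to 14 lower, and both counts were smallest without 4OHT replicate 2 (3 and 5). The lists were written with the pathways of the 9 genes in mind, so these counts describe them and were not tested.

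For the 3 genes of smallest p, the genes with the most similar values over the 6 arrays were sought by Pearson's r of the log2 levels. Il33 was followed most closely by Cdh24 (r = 0.9987), Calcoco2 (r = 0.9975) and Ankrd55 (r = 0.9967). Lif was followed by Trpc6 (r = 0.9983), Rcsd1 (r = 0.9978) and Crip1 (r = 0.9977), and Il6 by Derl3 (r = 0.9951), Dtnbp1 (r = 0.9909) and Ghitm (r = 0.99). These values describe 6 arrays in 2 groups, in which any pair of genes that differ between the groups correlates. The sizes of the changes were unlike: Trpc6, a cation channel gene, had log2 levels of 6.65, 6.92 and 6.62 in 4OHT wells, against 7.91, 8.03 and 7.98 in vehicle wells, a log2 fold change of -1.25 beside -0.21 for Lif.

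**Figure D5:**
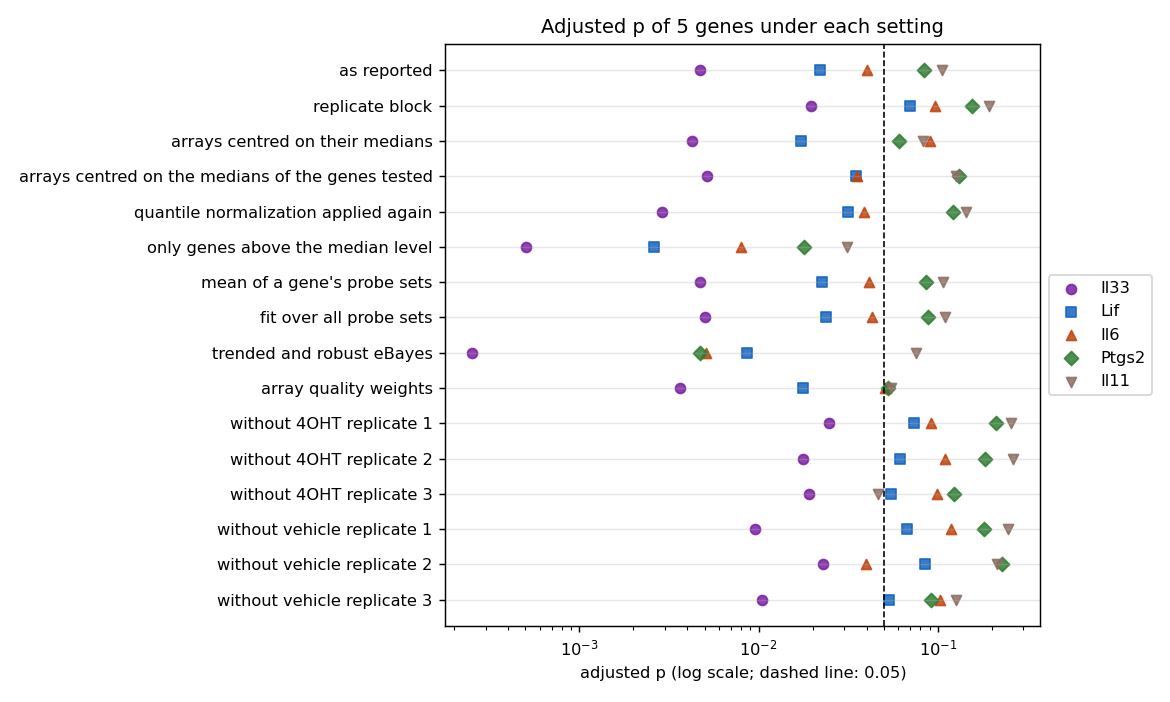
Adjusted p (x axis, log scale) of Il33, Lif, Il6, Ptgs2 and Il11 under the reported fit and 15 alternatives (1 line each), with a dashed line at 0.05. Il33 lies left of the line under every setting, between 0.000253 and 0.0247, while Lif and Il6 lie on both sides of it.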

How the data were processed

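Primary lung fibroblasts were profiled on single-colour arrays from 100 ng of total RNA per labelling, per the labels' protocols. The authors deposited log2 values per probe set, 1 column per array. Per the submitters' processing notes, oligo, RMA and limma were used. The genome build and any detection filter are not given in the sources used here.

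Of 41345 probe sets, 23521 had 1 symbol in the platform annotation, 1814 had several and 16010 had none listed. The probe set of highest mean stood for each gene, and 21994 of 22180 genes matched RefSeq by gene number. Dim genes were kept. Groups followed the treatment labels. They were compared with limma 3.58.1 in R 4.3.3 (lmFit and eBayes, 6.7 degrees of freedom, two-sided, Benjamini-Hochberg over all genes). Figures were drawn with matplotlib 3.10.9, and the fit was tested on simulated data. Members, lists and tests were chosen with earlier results of these data known. Named were all members, up to 4 called genes of smallest p per pathway list (otherwise 1), the 2 brightest of each marker list and the 3 genes most like each of 3 members. Of the marker lists, the text gives the fibroblast, smooth muscle and mesothelial pairs, called genes and a few genes not called. All but the pairs were chosen after their values were seen. Alternatives were a block for the replicate number, 3 scalings, a filter on dim genes, other treatments of probe sets and of the spread, other thresholds and leaving out each array. The deviations of same-numbered wells from their group means correlated at 0.0624, -0.0239 and 0.0432 for numbers 1, 2 and 3, so the numbers were not taken as pairs.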

Additional observations from a re-analysis of the deposited data

How the results depend on the processing

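The fall of Il33 kept its direction and its side of an adjusted p of 0.05 under all 15 alternative fits, with a log2 fold change from -0.58 to -0.47. The other thresholds are not among the 15, and Il33 was not called where a change of at least 1.5-fold was also required. Il6, Lif, Il11, Ptgs2, Il6st and Csf1 kept their direction under all 15, while Socs3 and Tslp, which were not called, changed sign under some. The log2 fold change of Socs3 was -0.039 after centring the arrays on their medians over all probe sets and -0.017 with array quality weights, and with 1 array left out it ranged from -0.030 (without 4OHT replicate 3) to 0.028 (without 4OHT replicate 1). That of Tslp was -0.019 after the same centring, and with 1 array left out it ranged from -0.117 (without 4OHT replicate 3) to 0.156 (without 4OHT replicate 1). The cause was not tested. Of the 9 genes, 1 was called higher and 2 lower as reported. With the replicate number as a block the counts were 0 higher and 1 lower, for the 20 STAT3 targets 1 and 4, for the 121 related genes 3 and 9, and for all genes 648 and 920. After centring the arrays on their medians over all probe sets, 0 of the 9, 5 of the related genes and 775 of all genes were higher. That centring moved the median log2 fold change of all genes to -0.05, and centring on the medians of the genes tested, an alternative chosen after seeing the data, moved it to 0.02 and gave 1406 genes higher and 1288 lower. With array quality weights, 0 of the 9 were higher. Among only genes above the median level, 1 of the 9 was higher and 4 were lower. That fit called 1750 higher and 2134 lower of the 11090 genes it tested. Estimating the spread with a trend and robustly called 1828 of all genes higher and 2295 lower. An adjusted p under 0.01 left 0 higher and 1 lower of the 9, 3 and 5 of the related genes, and 395 and 615 of all genes. A change of at least 1.5-fold left 0 and 0 of the 9, 0 and 2 of the related genes, and 159 and 304 of all genes. When any 1 array was left out, which leaves a group of 2, between 0 and 1 of the 9 were higher and between 1 and 2 lower, between 3 and 7 of the related genes higher and between 5 and 14 lower, and between 486 and 986 of all genes higher and between 734 and 1340 lower. Of 735 comparisons of single genes and lists with an alternative, 541 kept their side of the threshold or, for counts, stayed within 1.5 times. Lists with 0 calls under both fits counted among the 541. Of the rest, 161 were weaker (a call lost or a smaller count), 26 were stronger and 7 changed sign. Detection calls were not used, so no level, that of Tslp included, has a measured distance from background.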
